A study of Mus musculus with 40 samples.

Results

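Interneurons are the inhibitory nerve cells of the hippocampus, and 10 genes that mark them were followed across 40 mice. The genes were Gad1, Gad2, Slc32a1, Pvalb, Sst, Vip, Npy, Cck, Tac1 and Reln. They were chosen by gene symbol, and each symbol matched a row of the count table, so that 10 of its 40853 genes are members. All 10 passed the filter of at least 20 counts over all mice, which 28449 genes passed.

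RNA-seq was carried out on hippocampal tissue from 18 female and 22 male mice, with 1 library per mouse and 3 to 5 mice in each of 10 groups of sex and virus. According to the design text and the study's methods, the mice carried floxed alleles of H2az1 and H2az2, which both encode the histone variant H2A.Z, and were injected with AAV into the hippocampus in both hemispheres. In H2A.Z KO mice the virus mix held Cre, driven in neurons by the synapsin promoter, and a Myc tag alone. The labels call this deletion KD, for knockdown. The WT, KA and KQ replacement groups were given Cre and a Myc-tagged H2A.Z.1 that was wild-type, had its tail lysines replaced by alanine (acetyl-defective) or had them replaced by glutamine (acetyl-mimic). Myc control mice received the Myc tag without Cre, and the labels give their genotype as WT. By the study's methods, the Myc virus was mixed with PBS so that titer and volume matched. All other groups received Cre virus besides a Myc construct. Effects of Cre, of a second virus and of deletion therefore cannot be told apart in any comparison with Myc. Deletion below is short for H2A.Z KO against Myc. The tagged proteins were driven by a CMV promoter, all mice had been through memory tests, and their age is not given in the sources used here. The tissue mixes infected and uninfected cells of all types.

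Interneurons make the transmitter GABA from glutamate with 2 enzymes, GAD67 (Gad1) and GAD65 (Gad2), and load it into vesicles with the transporter VGAT (Slc32a1). Subtypes are told apart by what else they make. Parvalbumin (Pvalb), a calcium-binding protein, marks fast-spiking cells that inhibit the cell body, and somatostatin (Sst) marks cells that inhibit dendrites. Vasoactive intestinal peptide (Vip) marks cells that mostly inhibit other interneurons. Neuropeptide Y (Npy), cholecystokinin (Cck), the substance P precursor (Tac1) and the secreted protein reelin (Reln) occur in further, overlapping subtypes. Cck and Npy are also made by excitatory neurons.

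Several peptide genes are known targets of the cAMP-responsive factor CREB, whose element is TGACGTCA or the shorter TGACG. RefSeq promoter windows were found for all 10 members, in a table built on GRCm38.p6, and each was placed in GRCm39 by a unique match of its letters. In the 250 bases upstream of the start, TGACGTCA was held by Sst, as by 1.55% of 32851 windows of that length. TGACG on either strand, which the longer element contains, was held by Sst, Vip, Cck, Tac1 and Gad2, and by 17.8% of all windows. Pvalb, Gad1, Slc32a1, Npy and Reln had no match in this window. The 30 bases around the match nearest to the start are shown for the 4 peptide genes that held it. The motif is in capitals (CGTCA is TGACG on the other strand). With deletion, Sst and Cck passed as lower and Vip and Tac1 did not pass, a difference that was not tested. A link between motif and response was not tested either. Sst lies on the minus strand at chr16:23709622-23709651, Vip on the plus strand at chr10:5589127-5589156, Cck on the minus strand at chr9:121324790-121324819 and Tac1 on the plus strand at chr6:7555006-7555035. GENCODE transcripts with an earlier start cover the Sst, Cck and Tac1 stretches with an exon, and the Vip stretch is outside the gene's exons.
Sst: ctccttggcTGACGTCAgagagagagttta
Vip: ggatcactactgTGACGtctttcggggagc
Cck: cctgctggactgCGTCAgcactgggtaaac
Tac1: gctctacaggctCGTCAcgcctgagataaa

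Total counts per library ran from 24342921 to 45982772. Values are CPM, counts scaled to library size with TMM factors, and fold changes are log2 values ± SE from edgeR's quasi-likelihood test. A gene passed when its Benjamini-Hochberg adjusted p over all 28449 genes was under 0.05. H2az1, the H2A.Z.1 gene, read 32.2 ± 3.58 CPM (SD, n = 3) in female Myc and 31.0 ± 3.67 CPM (SD, n = 4) in female H2A.Z KO mice, and 32.9 ± 4.38 and 31.5 ± 9.37 CPM in males (SD, n = 4 each), so its level in whole tissue did not separate the groups (log2 fold change -0.06, adjusted p = 0.83 in females and -0.05, adjusted p = 0.84 in males). H2az2, the H2A.Z.2 gene, read 24.2, 26.0 and 19.4 CPM in female Myc mice and 28.3, 30.0, 26.2 and 28.0 CPM in female mice labelled as H2A.Z KO, so that every one of the latter was above every Myc mouse (0.28 ± 0.12, adjusted p = 0.061). In males it was 23.2 ± 2.50 and 25.5 ± 4.13 CPM (SD, n = 4 each; 0.14 ± 0.11, adjusted p = 0.35). Neither targeted gene was lower in whole tissue by its test, so these counts do not show the deletion, which is taken from the labels and the paper. The paper reports that Cre without replacement lowered the mRNA of both targeted genes, and the protein in cultured neurons. It proposes that the fall was small because bulk tissue is insensitive to a loss in neurons only. The H2az2 values here lay in the other direction from that report, without passing, and the reason was not tested. In the replacement groups H2az1 averaged 40.1, 40.0 and 42.0 CPM in females with WT, KA and KQ. In males it averaged 40.2, 42.0 and 37.4 CPM. Male KQ mice 8, 27, 28 and 44 read 33.6, 33.8, 36.6 and 33.1 CPM, within the range of male Myc mice, and mouse 45 read 50.1 CPM. Antisense genes overlap exons of Gad1, Slc32a1, Cck and Reln, and because the strand setting of the counting is not stated, their reads cannot be told apart from those of the members.

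**Figure D1:**
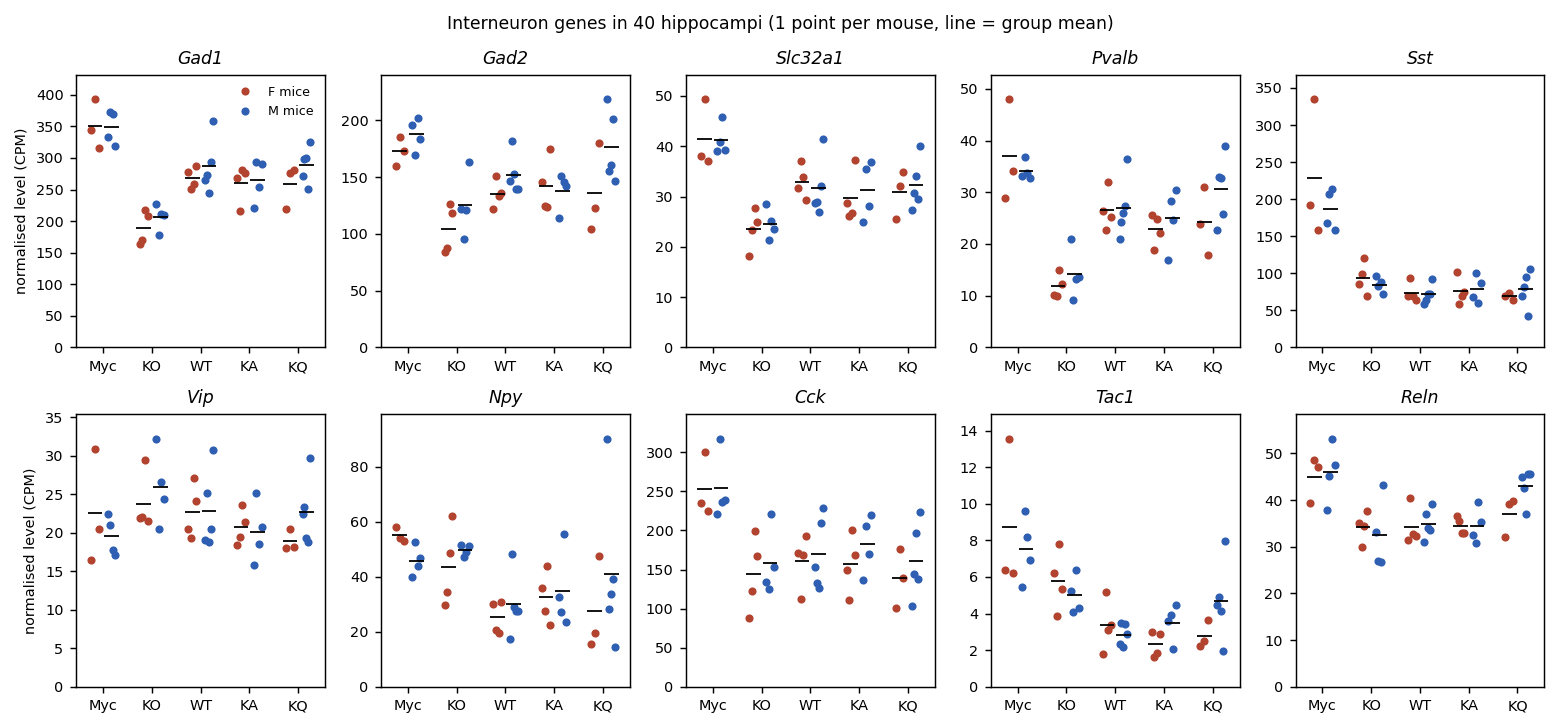
Normalised level (CPM, y axis from 0) of the 10 genes in every mouse, by virus group (x axis) and sex (colour), with the group mean as a line. Pvalb lies between 9.08 and 21.0 CPM in the 8 H2A.Z KO mice and at or above 16.9 CPM in the replacement groups, whereas Sst stays at or below 121 CPM in all groups but Myc.

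Per kilobase of exon, Sst was the most abundant member in Myc mice, with 62.9 ± 25.9 CPM per kb in females (SD, n = 3) and 51.5 ± 7.63 in males (SD, n = 4). Cck followed with 46.4 ± 7.55 and 46.5 ± 7.92, and Gad1 with 33.7 ± 3.73 and 33.5 ± 2.59 CPM per kb. Sst and Cck overlapped between mice and cannot be ordered. Npy and Gad2 came next and changed places between the sexes, with 30.5 against 26.5 CPM per kb in females and 25.3 against 28.8 in males. Pvalb (9.92 and 9.14) and Slc32a1 (8.28 and 8.23) lay lower, then Vip (2.60 and 2.26), Reln (1.90 and 1.93) and Tac1 (1.89 and 1.64). Pvalb overlapped Slc32a1, Vip overlapped Reln and Reln overlapped Tac1 between mice. Gad1 overlapped Npy in females and Gad2 in males, and was below Cck in every mouse. Lengths were unions of all GENCODE exons, which for Vip came to 8693 bases, so that long rare transcripts lower such a level. In H2A.Z KO mice, Sst (25.8 CPM per kb in females and 23.4 in males), Cck (26.4 and 29.0) and Npy (24.1 and 27.5) overlapped between mice in both sexes and cannot be ordered.

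In H2A.Z KO against Myc mice, 7 of the 10 genes passed as lower in each sex: Gad1, Gad2, Slc32a1, Pvalb, Sst, Cck and Reln. The share of all tested genes that passed as lower was 16.5% in females and 14.4% in males. The median log2 fold change of the 10 genes was -0.77 in females and -0.63 in males, against 0.00 and 0.03 over all genes tested. The other 3, Vip, Npy and Tac1, did not pass in either sex. In bulk tissue, fewer cells of a type and less RNA per cell cannot be told apart.

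Gad1 showed the smallest p of the transmitter genes. In females it read 344, 393 and 316 CPM in the Myc mice and 164, 170, 217 and 208 CPM in the H2A.Z KO mice. In males it read 334, 373, 370 and 318 CPM with Myc and 226, 178, 211 and 209 CPM with H2A.Z KO. All 8 H2A.Z KO mice were below all 7 Myc mice, and the change was -0.89 ± 0.12 in females (adjusted p = 7.58e-07) and -0.76 ± 0.12 in males (adjusted p = 2.44e-06). The second enzyme gene, Gad2, went from 173 ± 13.1 (SD, n = 3) to 104 ± 21.7 CPM (SD, n = 4) in females and from 188 ± 14.4 to 126 ± 27.9 CPM in males (SD, n = 4 each), a change of -0.73 ± 0.17 (adjusted p = 0.00085) and -0.58 ± 0.16 (adjusted p = 0.0041). The vesicle transporter gene Slc32a1 went from 41.5 ± 6.81 (SD, n = 3) to 23.6 ± 4.07 CPM (SD, n = 4) in females and from 41.2 ± 3.14 to 24.6 ± 3.02 CPM in males (SD, n = 4 each), with changes of -0.82 ± 0.16 (adjusted p = 9.1e-05) and -0.74 ± 0.15 (adjusted p = 0.00013). For both genes the groups did not overlap in either sex.

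Pvalb had the lowest fold change of the 10 genes in both sexes. In females it read 28.9, 48.0 and 34.1 CPM in Myc mice and 10.1, 9.88, 15.0 and 12.3 CPM in H2A.Z KO mice. In males it read 33.1, 36.8, 33.7 and 32.8 CPM with Myc and 21.0, 9.08, 13.3 and 13.6 CPM with H2A.Z KO. The groups were separate in both sexes, and the changes were -1.65 ± 0.23 (adjusted p = 1.43e-06) and -1.26 ± 0.22 (adjusted p = 2.44e-05).

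Sst came next. In females it read 192, 335 and 158 CPM in Myc mice, of which mouse 31 was the highest, and 86.2, 98.6, 121 and 69.0 CPM in H2A.Z KO mice. In males it read 167, 207, 214 and 159 CPM with Myc and 95.8, 83.5, 88.0 and 71.9 CPM with H2A.Z KO. No H2A.Z KO mouse reached the lowest Myc mouse, and the changes were -1.28 ± 0.25 (adjusted p = 0.00012) and -1.14 ± 0.23 (adjusted p = 0.00025).

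Cck fell by less relative to its spread. It read 235, 301 and 225 CPM in female Myc mice and 88.5, 122, 199 and 168 CPM in female H2A.Z KO mice, and 221, 318, 237 and 239 CPM against 134, 125, 221 and 153 CPM in males. The male groups all but touched, at 220.9 and 221.4 CPM. The changes were -0.81 ± 0.28 (adjusted p = 0.021) and -0.68 ± 0.26 (adjusted p = 0.042), and neither call held when single mice were left out: without Myc mouse 31 or H2A.Z KO mouse 13 or 14 in females the adjusted p was between 0.063 and 0.10, and without any of 6 of the 8 males it was between 0.055 and 0.14.

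Reln, the secreted protein that guides layering and is made by interneurons and Cajal-Retzius cells, had the smallest change of the 7 genes. It read 39.3, 48.7 and 47.1 CPM in female Myc and 35.1, 30.0, 34.3 and 37.7 CPM in female H2A.Z KO mice, and 37.8, 45.1, 53.2 and 47.6 against 33.1, 26.9, 26.7 and 43.2 CPM in males. The female groups lay next to each other and the male groups overlapped through 1 H2A.Z KO mouse. The change was -0.39 ± 0.13 (adjusted p = 0.016) in females and -0.50 ± 0.12 (adjusted p = 0.0012) in males. The female call was lost without Myc mouse 31 or 32 or H2A.Z KO mouse 14, at adjusted p of 0.063 to 0.085. It was also lost without the mice over 1000 CPM of Ttr, a choroid plexus transcript (-0.30, adjusted p = 0.13).

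Vip did not pass as lower. It read 16.5, 30.8 and 20.5 CPM in female Myc and 22.0, 22.1, 29.4 and 21.5 CPM in female H2A.Z KO mice, a change of 0.07 ± 0.19 with a 95% confidence interval from -0.31 to 0.46 (adjusted p = 0.81). In males it read 22.4, 21.1, 17.8 and 17.1 CPM with Myc and 32.2, 20.5, 26.6 and 24.4 CPM with H2A.Z KO, a change of 0.40 ± 0.18 with an interval from 0.04 to 0.76 (adjusted p = 0.080). Without male H2A.Z KO mouse 4 the adjusted p was 0.044, with a change of 0.50.

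Npy and Tac1 also gave no call with deletion. Npy read 58.2, 54.1 and 53.1 CPM in female Myc mice and 29.6, 34.5, 48.7 and 62.1 CPM in female H2A.Z KO mice, so the H2A.Z KO mice spread to both sides of the controls (-0.34 ± 0.41, adjusted p = 0.57). In males Npy lay at 45.8 ± 5.43 CPM with Myc and 49.7 ± 2.06 CPM with H2A.Z KO (SD, n = 4 each; 0.12 ± 0.38, adjusted p = 0.86). Tac1 is a low gene here. It lay at 8.72 ± 4.2 CPM (SD, n = 3) and 5.81 ± 1.64 CPM (SD, n = 4) in females and at 7.54 ± 1.79 and 5.00 ± 1.05 CPM in males (SD, n = 4 each), a change of -0.59 in both sexes (SE 0.34 and 0.32, adjusted p = 0.19 and 0.17).

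No member passed between the sexes. In Myc mice 0 of the 10 genes passed between females and males, where 0.0457% of all genes passed. The response to deletion was also compared between the sexes as an interaction, in which 0 members and 0% of all genes passed in edgeR, with 1569 genes and 0 members at an unadjusted p under 0.05 and 27 genes and 0 members by DESeq2. The interval of the difference in response was wide. For Pvalb it ran from -1.03 to 0.26 and for Sst from -0.83 to 0.54 on the log2 scale.

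The falls in interneuron genes stood beside a general fall in neuronal genes and a rise in genes of other cells. Of 15 pan-neuronal genes (synaptic and cytoskeletal genes of all neurons), 14 passed as lower in females and 8 in males, 0 as higher, with medians of -0.63 and -0.35. Their summed level lay between 10840 and 12010 CPM in female Myc and between 4832 and 8275 CPM in female H2A.Z KO mice, and between 10590 and 11600 against 5692 and 9182 CPM in males. Of 20 genes of excitatory principal neurons, 9 passed as lower in females and 11 in males. Calb1 and Prox1 are counted there and again in interneuron lists below, so these lists are not independent. Passing as higher was seen for 18.1% of all genes in females and 17.2% in males, and for all 12 microglia, 8 of 8 T cell and 7 of 9 astrocyte genes in both sexes. Summed microglia genes rose from a range of 404 to 672 CPM to 1864 to 3259 CPM in females and from 410 to 544 CPM to 1863 to 3774 CPM in males. The part of these shifts in the members' changes was not tested as a cause, but a scaling to the pan-neuronal genes gives each member's change relative to them.

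Relative to the pan-neuronal genes, 2 members passed in females and 4 in males. The share of all genes that passed on this scale was not counted, here or in later comparisons, so these counts have no background beside them. Pvalb was still lower in both sexes, at -0.95 (adjusted p = 0.00016) and -0.85 (adjusted p = 0.00053). Sst was at -0.54 in females (adjusted p = 0.092) and lower in males at -0.68 (adjusted p = 0.036). Gad1 was at -0.20 in females (adjusted p = 0.14) and lower in males at -0.32 (adjusted p = 0.018). Gad2, Slc32a1 and Cck did not pass in either sex on this scale and lay between -0.30 and -0.06. Reln changed sign in females, to 0.32 (adjusted p = 0.085), and its fall in males was no longer called, at -0.08 (adjusted p = 0.70). Vip passed as higher in both sexes, at 0.80 (adjusted p = 0.0006) and 0.83 (adjusted p = 0.00021). Because the reference genes themselves fell, a value of 0 on this scale means a fall of the same size as that of neurons at large.

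**Figure D2:**
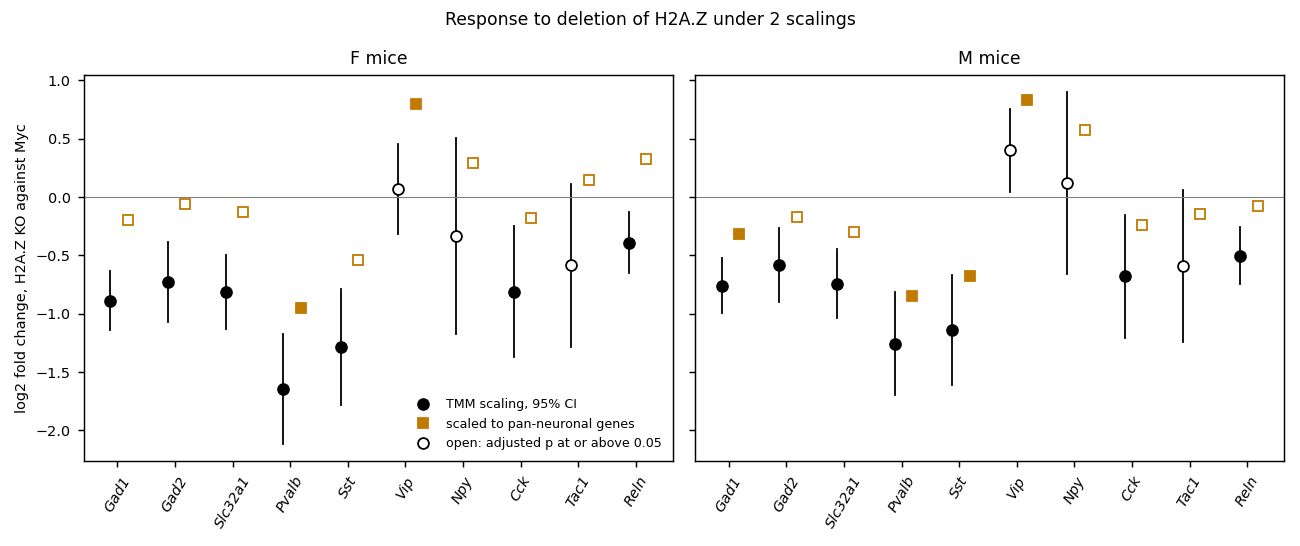
Log2 fold change of H2A.Z KO against Myc (y axis) for the 10 genes (x axis) in females (left) and males (right). Black circles show TMM scaling with the 95% confidence interval, orange squares the same comparison scaled to pan-neuronal genes, and open symbols an adjusted p at or above 0.05. Pvalb is below 0 and filled under both scalings in both sexes, and Vip is above 0 under both and filled only under the pan-neuronal scaling.

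The wider GABA pathway was lower in part. Beside the counts of this and the further lists for deletion stand the shares of all genes. As lower, 16.5% passed in females and 14.4% in males, and as higher 18.1% and 17.2%. Of 8 genes of GABA transport and breakdown, 4 passed as lower in each sex, with 2 higher in females and 0 in males. Aldh5a1, which completes the breakdown of GABA, fell from 85.0 ± 4.16 (SD, n = 3) to 55.3 ± 4.14 CPM (SD, n = 4) in females and from 86.7 ± 1.26 to 55.3 ± 3.23 CPM in males (SD, n = 4 each), by 0.62 and 0.65 on the log2 scale (adjusted p = 1.88e-07 and 9.14e-09). Slc12a5, the chloride exporter that makes GABA inhibitory in mature neurons, fell by 0.54 and 0.60 (adjusted p = 0.0049 and 0.00094). Abat and Slc6a11 were the other 2 that were lower in both sexes. Slc6a13, a transporter of meninges and vessels, was the gene with the largest rise, 1.85 ± 0.42 in females (adjusted p = 0.00073), and did not pass in males (0.52, adjusted p = 0.30). Slc12a2, a chloride importer, was the other gene that was higher in females (0.73, adjusted p = 0.0018), with 0.35 in males (adjusted p = 0.11).

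Transcription factors that specify interneurons split in their direction. Of 17, 8 passed as lower and 2 as higher in females and 7 as lower and 2 as higher in males. Dlx1, Dlx2, Dlx5, Dlx6, Lhx6 and Npas1 were lower in both sexes. Lhx6, needed by Pvalb and Sst cells, went from 20.2 ± 4.30 (SD, n = 3) to 10.3 ± 2.63 CPM (SD, n = 4) in females and from 17.0 ± 0.45 to 10.9 ± 2.33 CPM in males (SD, n = 4 each; -0.97 ± 0.16, adjusted p = 1.24e-05, and -0.64 ± 0.15, adjusted p = 0.001). Dlx6 changed by -1.25 (adjusted p = 0.0029) and -0.95 (adjusted p = 0.016). Npas1 changed by -0.67 (adjusted p = 0.0014) and -0.72 (adjusted p = 0.00032). The 2 that were higher were the same in both sexes, Maf (0.91 and 0.59) and Sox6 (0.60 and 0.73). Maf is also a gene of microglia and macrophages and Sox6 of oligodendrocyte precursors, and the source of these rises was not tested.

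Of 25 further subtype markers, 14 passed as lower in females and 12 in males, with 0 and 1 higher. The fast-spiking potassium channel genes Kcnc2 (-1.11 ± 0.12 and -1.02 ± 0.11, adjusted p = 1.37e-08 and 4.56e-09) and Kcnc1 (-0.79 and -0.69) were among them, as were Nxph1, a synaptic protein of interneurons (-0.83 and -0.71), and the serotonin receptor gene Htr3a (-1.003 and -0.56). Htr3a marks the same broad class as Vip, which did not pass as lower. Nos1 and Crhbp, found in Sst cells among others, changed by -1.18 and -1.05 in females and by -0.74 and -0.76 in males. Crh, a peptide gene of interneurons, was the 1 marker that passed as higher in males (0.63, adjusted p = 0.028).

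The peptide genes that are not members took no common direction. Of 22 other neuropeptide and granin genes, Iapp was too low to be tested. Of the 21 tested, 5 passed as higher and 3 as lower in females and 3 as higher and 1 as lower in males, with medians of 0.17 and 0.22. Of all genes, 18.1% passed as higher and 16.5% as lower in females and 17.2% and 14.4% in males. The counts were near or below those shares, so they show nothing particular to this class. Pdyn, the dynorphin precursor of granule cells, rose from 10.7 ± 6.06 (SD, n = 3) to 24.3 ± 9.55 CPM (SD, n = 4) in females and from 11.96 ± 1.64 to 26.2 ± 8.39 CPM in males (SD, n = 4 each; 1.17, adjusted p = 0.024, and 1.13, adjusted p = 0.017). Scg2, a granin of secretory vesicles, rose by 0.53 and 0.49 (adjusted p = 0.026 and 0.027). Adcyap1, the precursor of a peptide related to Vip, passed in males (1.68 ± 0.40, adjusted p = 0.0015) and was 0.65 in females (adjusted p = 0.27). Nts passed as lower in females (-1.62, adjusted p = 0.017) and was -1.03 in males (adjusted p = 0.11). The rise of Trh in females (6.30 ± 1.53) came with an SD of 49.9 CPM around a mean of 26.0 CPM in H2A.Z KO mice.

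Receptor genes for the members' peptides and for reelin passed in part. Of 20, 6 passed as lower in females and 5 in males, and 1 and 0 as higher. Npy5r, a receptor of neuropeptide Y, fell from 3.69 ± 0.76 (SD, n = 3) to 1.84 ± 0.26 CPM (SD, n = 4) in females and from 4.25 ± 0.77 to 2.05 ± 0.36 CPM in males (SD, n = 4 each; -1.01 and -1.05, adjusted p = 0.00012 and 2.09e-05). The somatostatin receptor gene Sstr4 changed by -0.65 and -1.08 (adjusted p = 0.028 and 0.00021). Dab1, which carries the reelin signal into the cell, changed by -0.29 and -0.33 (adjusted p = 0.028 and 0.0071). Vipr1 was lower in both sexes (-0.36 and -0.39), and Vipr2 was higher in females only by its own test (1.34, adjusted p = 0.026, against 0.34, adjusted p = 0.57), a difference that was not tested.

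Markers of other Reln-rich cells and of neighbouring regions were checked as well. Of 8 Cajal-Retzius genes, 1 passed as higher and 0 as lower in females and 1 and 2 in males, and Trp73, which defines these cells, was at 0.23 in females (adjusted p = 0.63) and lower in males (-1.16, adjusted p = 0.0032). Of 13 genes of striatum, thalamus and septum, which are rich in several of the peptides, 4 passed as higher and 1 as lower in females and 2 and 2 in males. Their summed level had ranges of 162 to 208 and 180 to 220 CPM in female Myc and H2A.Z KO mice and of 183 to 243 and 187 to 230 CPM in males. All 8 genes of choroid plexus, a tissue next to the hippocampus, passed as higher in females and 0 of 8 in males. In female H2A.Z KO mice the choroid plexus transcript Ttr read 3655 and 2654 CPM in mice 14 and 33. It read 84.3 and 35.6 CPM in mice 13 and 34. A fit without the mice over 1000 CPM of Ttr, all of them female, is given in the closing section. The part of these tissues in the results was not tested further.

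Replacement was compared with H2A.Z KO for each form of H2A.Z.1 and sex. These comparisons share the H2A.Z KO mice of each sex and are given side by side. Gad1 and Pvalb passed as higher in all 6 comparisons, while Sst, Vip, Npy and Cck passed in none. In females, 3 of the 10 genes passed as higher with H2A.Z.1 WT, 3 with KA and 2 with KQ, where 5.36%, 5.63% and 5.36% of all genes did, and 0, 1 and 1 passed as lower, where 9.17%, 9.62% and 7.63% did. In males, 2, 2 and 5 passed as higher, where 7.44%, 5.86% and 8.72% of all genes did, and 0, 0 and 0 as lower, where 12%, 9.94% and 12.7% did.

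Pvalb rose with every form. In females it read 26.3, 22.8, 32.0 and 25.2 CPM with H2A.Z.1 WT, 25.7, 18.9, 24.9 and 22.2 CPM with KA and 23.8, 31.0 and 17.9 CPM with KQ, all above the highest H2A.Z KO mouse at 15.0 CPM. The changes were 1.17 ± 0.22 (adjusted p = 0.00045), 0.96 ± 0.22 (adjusted p = 0.003) and 1.04 ± 0.23 (adjusted p = 0.0033). In males it read 20.9, 24.2, 25.9, 27.4 and 36.5 CPM with WT, 16.9, 28.3, 24.6 and 30.4 CPM with KA and 22.8, 32.9, 32.8, 25.7 and 39.0 CPM with KQ. Male H2A.Z KO mouse 3, at 21.0 CPM, reached into the WT and KA ranges and stayed below the KQ mice. The male changes were 0.92 ± 0.21 (adjusted p = 0.0013), 0.81 ± 0.22 (adjusted p = 0.0076) and 1.11 ± 0.21 (adjusted p = 0.00016). Leaving out 1 mouse ended 2 of the 6 calls: KQ in females without KQ mouse 37 (0.82, adjusted p = 0.058) and KA in males without H2A.Z KO mouse 4 (0.65, adjusted p = 0.051). Relative to the pan-neuronal genes Pvalb still passed as higher in all 6 comparisons, by 0.58 to 0.84. With only the compared groups fitted, KA in males did not pass (0.83, adjusted p = 0.082).

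Gad1 rose by 0.50 ± 0.12, 0.46 ± 0.12 and 0.44 ± 0.12 in females with WT, KA and KQ (adjusted p = 0.0025, 0.0062 and 0.015). In males it rose by 0.48 ± 0.11, 0.36 ± 0.12 and 0.49 ± 0.11 (adjusted p = 0.0016, 0.027 and 0.0012). Its group means in the replacement groups lay between 258 and 289 CPM, between those of H2A.Z KO (190 and 206 CPM) and Myc (351 and 349 CPM). The female KQ call was lost without any of 4 mice (H2A.Z KO 13 or 14, KQ 37 or 38) and the male KA call without any of 3 (H2A.Z KO 4, KA 25 or 43). Relative to the pan-neuronal genes Gad1 passed in none of the 6 comparisons.

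The other GABA genes passed in some groups. Gad2 passed with KA in females (0.45 ± 0.16, adjusted p = 0.048) and with KQ in males (0.49 ± 0.15, adjusted p = 0.015), and lay between 0.14 and 0.38 in the other 4 comparisons. Slc32a1 passed with WT in females (0.48 ± 0.15, adjusted p = 0.02) and with KQ in males (0.39 ± 0.14, adjusted p = 0.039), with 0.34 to 0.39 elsewhere. Reln passed as higher with KQ in males, where it read 45.0, 42.5, 37.0, 45.6 and 45.6 CPM against 33.1, 26.9, 26.7 and 43.2 CPM in H2A.Z KO mice (0.41 ± 0.11, adjusted p = 0.0075), and lay between -0.0007 and 0.11 elsewhere. Each of these 5 calls was lost without single mice: Gad2 in females without any of 5 mice and in males without H2A.Z KO mouse 4 or KQ mouse 8, Slc32a1 without any of 4 females and any of 5 males, and Reln without H2A.Z KO mouse 4 or 21.

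Sst did not pass as higher with any form. In females it read 68.9, 93.3, 69.1 and 64.3 CPM with H2A.Z.1 WT, 101, 58.8, 69.2 and 74.6 CPM with KA and 69.1, 74.0 and 63.9 CPM with KQ. In males it read 58.1, 64.4, 72.0, 72.6 and 91.7 CPM with WT, 68.4, 100.5, 60.5 and 87.5 CPM with KA and 69.7, 81.0, 94.8, 42.4 and 106 CPM with KQ. These ranges overlap those of H2A.Z KO in all 6 comparisons. The differences from H2A.Z KO were -0.34 ± 0.23, -0.30 ± 0.23 and -0.44 ± 0.25 in females and -0.24 ± 0.22, -0.10 ± 0.23 and -0.11 ± 0.22 in males (adjusted p from 0.27 to 0.84). The upper ends of their 95% confidence intervals lay between 0.07 and 0.37, all smaller than the falls of 1.28 and 1.14 in H2A.Z KO against Myc mice. Relative to the pan-neuronal genes, Sst passed as lower than in H2A.Z KO mice in females with WT (-0.70, adjusted p = 0.044) and KQ (-0.80, adjusted p = 0.044). On that scale Vip passed as lower than in H2A.Z KO mice with KA and KQ in females and with all 3 forms in males, by -0.68 to -0.46.

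Tac1 was lower with replacement than with deletion alone in part of the comparisons. In female H2A.Z KO mice it read 6.19, 3.88, 7.81 and 5.34 CPM, with KA 3.01, 1.62, 1.87 and 2.89 CPM and with KQ 2.20, 2.50 and 3.64 CPM. Both replacement groups lay wholly below the H2A.Z KO mice, with changes of -1.30 ± 0.33 (adjusted p = 0.0069) and -1.06 ± 0.36 (adjusted p = 0.046). The KQ call was lost without any of 6 of the 7 mice, at adjusted p of 0.053 to 0.18. With WT the change was -0.78 ± 0.33 in females (adjusted p = 0.11) and -0.81 ± 0.31 in males (adjusted p = 0.059), and in males KA gave -0.51 and KQ -0.09. Npy differed from H2A.Z KO mice by -0.79 to -0.28 over the 6 comparisons, with no call (adjusted p from 0.17 to 0.66). Relative to the pan-neuronal genes, both genes passed as lower than in H2A.Z KO mice with WT in both sexes. Tac1 was there at -1.11 in females (adjusted p = 0.011) and -1.10 in males (adjusted p = 0.0077), and Npy at -1.07 (adjusted p = 0.034) and -1.03 (adjusted p = 0.033).

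Against the Myc controls, which each sex's comparisons share, Sst passed as lower in all 6 replacement comparisons. The changes were -1.63 ± 0.25, -1.59 ± 0.25 and -1.72 ± 0.27 in females with WT, KA and KQ (adjusted p = 0.00036, 0.00033 and 0.00074) and -1.38 ± 0.22, -1.24 ± 0.23 and -1.24 ± 0.22 in males (adjusted p = 0.00019, 0.00061 and 0.00062). The highest replacement mouse, at 106 CPM, was below the lowest Myc mouse, at 158 CPM. No single mouse left out ended a call, and the calls also held relative to the pan-neuronal genes, at -1.34 to -1.05. With only the compared groups fitted, KQ in females did not pass (-1.72, adjusted p = 0.053).

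Tac1 passed as lower against Myc in 5 of the 6 comparisons, at -1.37, -1.89 and -1.65 in females with WT, KA and KQ and at -1.40 and -1.10 in males with WT and KA (adjusted p from 0.0014 to 0.028). With KQ in males it was -0.68 (adjusted p = 0.21), and male KQ mice ranged from 1.97 to 7.96 CPM, overlapping the Myc mice at 5.43 to 9.62 CPM. Female Myc mouse 31, at 13.6 CPM against 6.38 and 6.22 CPM in the other 2, weighed on the female values: without it WT was at -0.90 (adjusted p = 0.15) and KQ at -1.18 (adjusted p = 0.10). WT mouse 19 and KQ mouse 17 also carried the female WT and KQ calls, with adjusted p of 0.051 and 0.12 without them. The male KA call was lost without any of 4 mice, at adjusted p of 0.069 to 0.12. The female WT and male KA calls were lost relative to the pan-neuronal genes (-0.97, adjusted p = 0.056, and -0.90, adjusted p = 0.097) and the other 3 held.

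Of the remaining members, only Gad1 and Reln passed against Myc by the main design. Gad1 passed as lower with all 3 forms in females (-0.39, -0.43 and -0.44, adjusted p = 0.044, 0.026 and 0.042) and with KA in males (-0.40, adjusted p = 0.025), and each of these 4 calls was lost without any of several single mice, Myc mouse 31 among them in females. Reln passed as lower with WT in both sexes (-0.39 each, adjusted p = 0.047 and 0.031) and with KA in males (-0.41, adjusted p = 0.025), and these 3 calls were lost likewise. None of these 7 calls of Gad1 and Reln held relative to the pan-neuronal genes, with changes from -0.24 to -0.03 (adjusted p from 0.28 to 0.91). Pvalb passed against Myc in none by the main design, with changes from -0.69 to -0.15. KA in females had an adjusted p of 0.058, and passed with DESeq2 (-0.68, adjusted p = 0.032). Gad2, Slc32a1, Cck, Npy and Vip also passed in none by the main design. In other settings, all of these but Vip passed as lower in some comparisons. By DESeq2, Slc32a1 did so with KA in females (-0.47, adjusted p = 0.041) and Cck with KQ in females (-0.88, adjusted p = 0.029). The lack of a call was not taken as a return to the control level. Npy lay between -1.13 and -0.76 in females (adjusted p from 0.081 to 0.27), where H2A.Z KO gave -0.34, and between -0.62 and -0.16 in males (adjusted p from 0.38 to 0.87), where H2A.Z KO gave 0.12. Cck lay between -0.87 and -0.47 in the 6 comparisons. In all, 4, 3 and 3 of the 10 genes passed as lower in females with WT, KA and KQ, where 3.52%, 3.23% and 2.08% of all genes did, and 3, 4 and 1 in males, where 1.68%, 2.74% and 1.65% did.

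**Figure D3:**
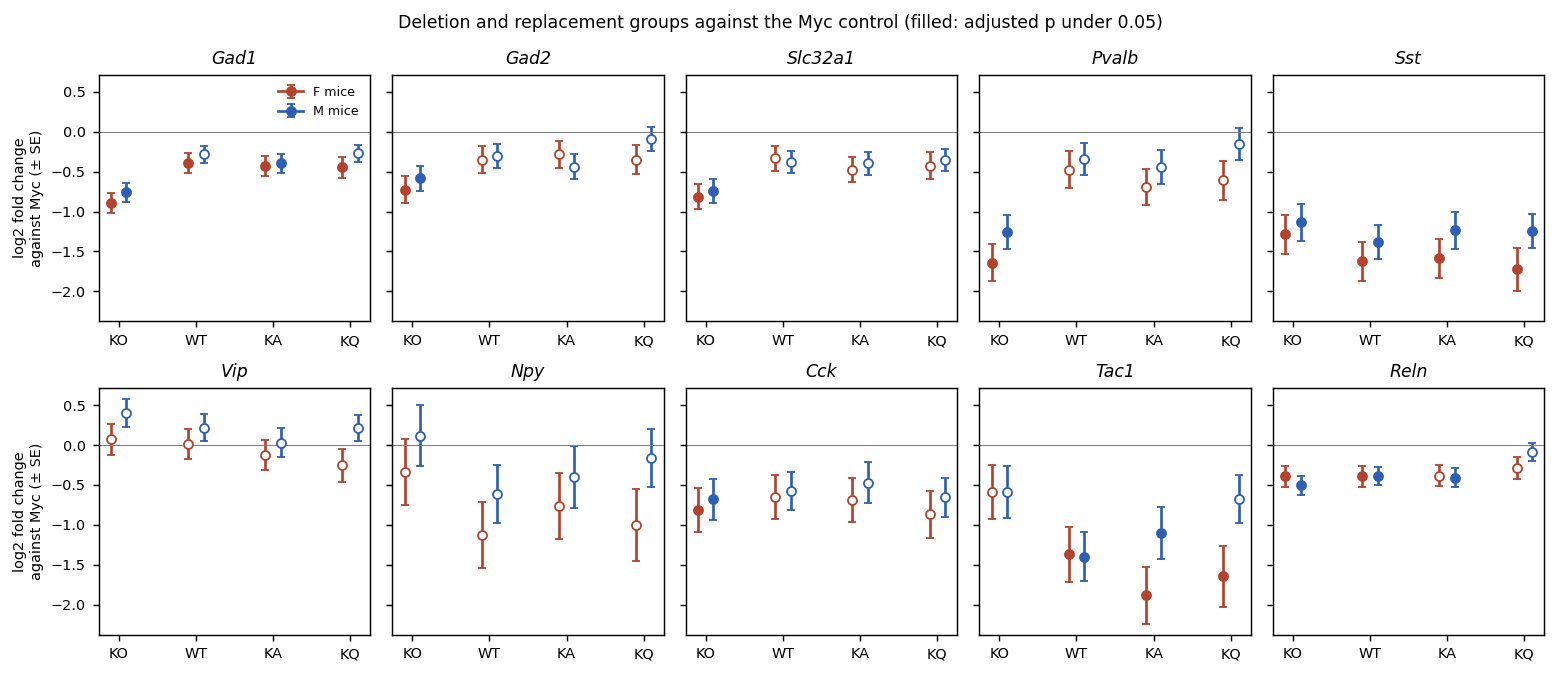
Log2 fold change against Myc (y axis, ± SE) of the 10 genes in the H2A.Z KO and the replacement groups (x axis), by sex (colour), with filled points for an adjusted p under 0.05. Pvalb is lowest in H2A.Z KO and nearer to 0 in the replacement groups, while Sst stays between -1.72 and -1.14 in all 4 groups of both sexes.

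As a description of each mouse, the log2 ratio of Sst over Pvalb CPM lay between 2.21 and 2.80 in female Myc and between 2.49 and 3.31 in female H2A.Z KO mice. It lay between 1.11 and 2.03 with H2A.Z.1 WT, 1.47 and 1.98 with KA and 1.25 and 1.83 with KQ. In males the ranges were 2.28 to 2.66 with Myc, 2.19 to 3.19 with H2A.Z KO, 1.33 to 1.47 with WT, 1.30 to 2.01 with KA and 0.72 to 1.61 with KQ. Every mouse that received an H2A.Z.1 form was below every Myc and H2A.Z KO mouse. The ratio was formed after the values of both genes were seen, and it carries no test. Counts of infected cells were not analysed here.

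**Figure D4:**
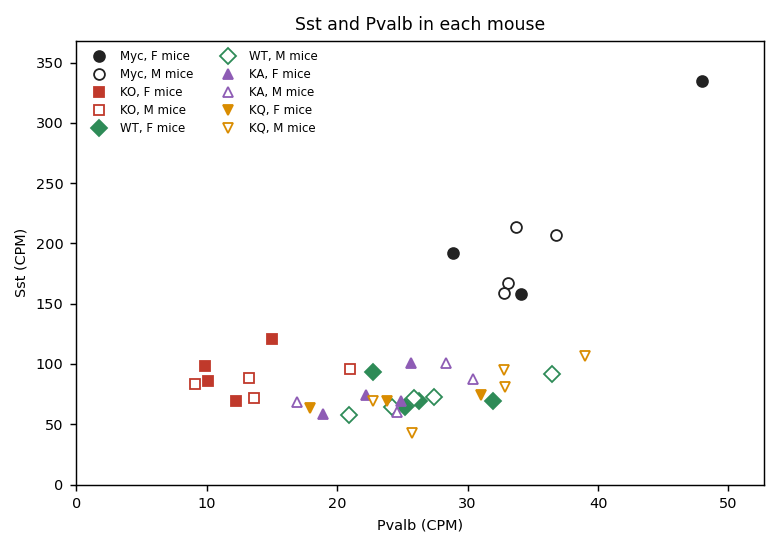
Sst against Pvalb (CPM, both axes from 0) in each mouse, by virus group (symbol and colour) and sex (filled for females, open for males). H2A.Z KO mice lie at low Sst and mostly at lower Pvalb than replacement mice, which are also at low Sst, and Myc mice lie at high values of both. The groups overlap on Pvalb. Male H2A.Z KO mouse 3, at 21.0 CPM, is above the lowest replacement mouse at 16.9 CPM. Replacement mice reach 39.0 CPM, above the lowest Myc mouse at 28.9 CPM.

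The acetyl-defective and acetyl-mimic forms were not told apart by any member. Between KA and KQ, 0 of the 10 genes passed in either sex, as did 0% of all genes in edgeR. At an unadjusted p under 0.05 there were 595 genes and 0 members in females and 2993 genes and 2 members in males, and DESeq2 passed 8 and 19 genes with 0 members. The 2 members were Reln (-0.32 ± 0.11, adjusted p = 0.39) and Gad2 (-0.35 ± 0.15, adjusted p = 0.42), both with lower levels in KA than in KQ males. For Pvalb the 95% interval of KA minus KQ ran from -0.55 to 0.38 in females and from -0.70 to 0.12 in males, and for Sst from -0.37 to 0.64 and from -0.44 to 0.45 on the log2 scale.

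The longer list of 25 other subtype markers was counted in the same comparisons. Against H2A.Z KO, 4, 4 and 4 of them passed as higher in females with WT, KA and KQ and 4, 3 and 6 in males, next to 0, 2 and 1 and 3, 1 and 3 as lower. Of all genes, 5.36%, 5.63% and 5.36% passed as higher in females and 7.44%, 5.86% and 8.72% in males. As lower, 9.17%, 9.62% and 7.63% of all genes passed in females and 12%, 9.94% and 12.7% in males. The counts of markers passing as lower were near or below those shares. Against Myc, 9, 6 and 5 passed as lower in females and 5, 8 and 2 in males, with 0 as higher in all 6. Of all genes, 3.52%, 3.23% and 2.08% passed as lower in females and 1.68%, 2.74% and 1.65% in males. From 3.48% to 5.87% of all genes passed as higher. Of the 17 transcription factors, 2 passed as lower than in Myc with each form in females, and 0, 3 and 0 in males, beside the same shares.

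Beside the values of the replacement groups stand those of other cells. Summed microglia genes lay between 750 and 1954 CPM in the replacement groups, above the 404 to 672 CPM of Myc mice and overlapping at their upper end with the H2A.Z KO mice, the lowest of which was at 1863 CPM. The summed pan-neuronal genes lay between 7111 and 9713 CPM in female and between 8200 and 11560 CPM in male replacement mice. Their part in the members' levels was not tested, apart from the pan-neuronal scaling given above.

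Across mice, likeness was described as Pearson's r over the deviations of log2 CPM from the group means of 40 mice, among 15937 genes with a mean of at least 1 CPM. Points of a gene pair come from the same libraries. Tac1 was most like another member, Sst (r = 0.72). Gad1 was closest to Stmn3 (0.89), Gad2 to Ehbp1 (0.87), Slc32a1 to Sv2a (0.83), Pvalb to Rnf227 (0.85), Vip to Hdac4 (0.80), Npy to Bdnf (0.80), Cck to Klc2 (0.95), Sst to Ppp1r16a (0.78) and Reln to Abat (0.71). Among members the highest pairs were Gad1 with Cck (0.81) and with Slc32a1 (0.80) and Pvalb with Vip (0.75), and the lowest was Sst with Npy (-0.30).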

How the data were processed

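Each library was made from the hippocampal tissue of 1 mouse. Reads were paired-end. The authors mapped them to GRCm39 with Rsubread, assigned them to genes with featureCounts, ran FastQC 0.11.9 and deposited raw counts per gene and mouse. The strand setting is not given in the sources used here. A second deposited table, with values normalized in DESeq2 1.38.3, was not used. Counts of genes with a sum of at least 20 were scaled with TMM and fitted in edgeR 4.0.16 (R 4.3.3). The steps were estimateDisp, a robust glmQLFit and glmQLFTest, and the model held 10 group means over all 40 mice. Benjamini-Hochberg adjustment ran over all genes tested. SE is the absolute fold change divided by the square root of F. Mice of a group differed beyond counting error in every pair (lowest chi-square over its degrees of freedom 7.52), so that each library was counted as a sample of its own. The p-values set differences between group means against a spread between mice. That spread was estimated over all 10 groups and shared in part across genes.

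The members and the gene lists were chosen with earlier results of these data known. From each list the 4 genes with the smallest p for deletion in either sex were named by rule, and others were named after their values were seen. A gene was left out of each of 2 lists and is not reported here. Motifs were searched on both strands of RefSeq windows. The fit was tested on simulated data. Alternatives were DESeq2 size factors, a scaling to 15 pan-neuronal genes, 2 other filters, no robust estimation, the range of sample numbers as a covariate, leaving out 4 mice with over 1000 CPM of Ttr, fitting only the compared groups, DESeq2 1.42.0, and leaving out each mouse in turn.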

Additional observations from a re-analysis of the deposited data

Results flagged for a closer look

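In groups of 4 or 5 mice, the highest or lowest mouse was compared with the others by Dixon's ratio, and 3 of 80 groups of the 10 genes were past its 95% limit. Chance flags about 1 in 20 groups, but the groups share libraries, so this number was read neither as a pattern nor as chance. Sst in female H2A.Z.1 WT mouse 20 was 93.3 CPM, with the other 3 mice between 64.3 and 69.1 CPM. Reln in the same mouse was 40.5 CPM, with the others between 31.5 and 32.6 CPM. This mouse also had the highest Ttr, a choroid plexus transcript, with 4104 CPM. Vip in female H2A.Z KO mouse 33 was 29.4 CPM, with the others between 21.5 and 22.1 CPM, and Ttr there was 2654 CPM. Explanations for these 3 values were not tested.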

How the results depend on the processing

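Of 51 calls of a member in a comparison, 50 held with DESeq2 size factors, 51 with filterByExpr, 47 with no filter on low counts, 51 without robust estimation, 50 with the range of sample numbers as a covariate, 44 without the 4 mice high in Ttr, 39 when only the compared groups were fitted, 51 with DESeq2 and 21 with the scaling to pan-neuronal genes. The scaling to pan-neuronal genes turned the female Reln change with deletion to 0.3241 and otherwise kept the direction of each call, while 13 others passed under it. Without the mice high in Ttr, 7 calls were lost and 4 gained. The causes were not tested.

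The number of members past the threshold moved by over 1.5 times in these settings. With the pan-neuronal scaling it was 2 in females and 4 in males for H2A.Z KO against Myc (7 each by the main design), 1 for female WT against Myc (4), 4 for male WT against H2A.Z KO (2), 1 for male KA against Myc (4) and 2 for male KQ against H2A.Z KO (5). For female KA against Myc (3) it was 6 with filterByExpr, 6 with the number range as a covariate, 5 without the mice high in Ttr, 5 with only the compared groups and 5 with DESeq2. With only the compared groups it was 1 for female KQ against H2A.Z KO (3), 1 for female KQ against Myc (3), 5 for male WT against Myc (3), 0 for male KA against H2A.Z KO (2) and 2 for male KQ against H2A.Z KO (5). It was 1 for female KQ against Myc without the mice high in Ttr and 3 for male KQ against Myc with the number range as a covariate (1).

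Leaving out each mouse in turn, the number of members past the threshold ranged from 5 to 7 in females and from 6 to 7 in males for H2A.Z KO against Myc. In females it ranged from 1 to 3 for WT, 2 to 5 for KA and 1 to 4 for KQ against Myc, and from 2 to 4, 3 to 4 and 0 to 4 against H2A.Z KO. In males it ranged from 2 to 5 for WT and 1 to 4 for KA against Myc and was 1 for KQ throughout, and it ranged from 2 to 3, 0 to 3 and 2 to 5 against H2A.Z KO. The mice that moved it by over 1.5 times were, in females, Myc 11, 31 and 32, H2A.Z KO 13, WT 19 and 39 and KQ 17, 37 and 38, and in males Myc 22 and 23, H2A.Z KO 4 and 21, WT 46 and KA 5, 25, 26 and 43. Over all members, 311 of 396 repeats of a call held, 85 fell short of the threshold and none turned.

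No paired analysis was possible because each sample number in the labels belongs to a single mouse and no number is shared between groups. The sample numbers fall into ranges of 1 to 20, 21 to 40 and 41 to 46, which the labels do not call a batch. Within each range and sex that held both groups, the H2A.Z KO mean log2 CPM minus that of Myc was negative for Pvalb (-1.57 to -1.26), Sst (-1.33 to -0.90) and Gad1 (-1.05 to -0.61), with 1 or 2 mice a group. With 3 to 5 mice a group, Tac1, a low gene, had SEs of 0.30 to 0.38 against Myc, so that changes of that size could not be called. Wide SEs were not confined to low genes. For deletion, Npy had a larger SE than Tac1 in each sex, and Npy in male KQ mice ranged from 14.4 to 90.2 CPM.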
